A study of Mus musculus with 12 samples.

Results

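The Bcl2 family sets whether a cell keeps its mitochondria intact or releases cytochrome c and dies. Its expression was described here in mouse bone marrow-derived dendritic cells that lacked Arc or carried it, with and without the bacterial product LPS. The set held 10 listed genes, and a gene was measured where a probe set carried its symbol and no other. Of the 10, 9 were measured among 22180 genes tested, and Bax was not analysed here. Mcl1 and Bcl2 each had 2 such probe sets, and the brighter one by its mean on the 12 arrays was used.

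The family acts through direct contact between its proteins. Bcl2, Bcl-xL (from Bcl2l1) and Mcl1 are pro-survival proteins that hold the effectors Bax and Bak1 in check at the outer mitochondrial membrane. BH3-only proteins such as Bim (from Bcl2l11), Puma (from Bbc3), Noxa (from Pmaip1), Bid and Bad carry stress signals to them, either by occupying the pro-survival proteins or by activating the effectors. In dendritic cells, which are short-lived once activated by microbial products, Bim is known to promote death and Bcl-xL and Bcl2 to delay it.

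Dendritic cells were grown from the marrow of male mice aged 8 weeks on a C57BL/6 background, with GM-CSF at 20 ng/ml, and semi-adherent cells were taken on day 7. The 4 groups were Arc/Arg3.1 -/- cells given LPS, untreated Arc/Arg3.1 -/- cells, Arc/Arg3.1 +/+ cells given LPS and untreated Arc/Arg3.1 +/+ cells, with 3 arrays each. LPS, which activates Toll-like receptor 4, was given at 100 ng/ml for 30 min, untreated cells received medium for the same time, and all cells then stayed in fresh medium for 1 h. Arrays of a group are labelled as biological replicates, but separate animals are not stated, and the p-values cover no more than the spread among these cultures. Values are the authors' normalized log2 signals, on which 1 unit is a 2-fold difference, and the number of arrays limits their precision. Signals of different probe sets cannot be ranked against each other.

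Some arrays departed from their labels or from their group. Arc itself read 7.68 to 8.05 on the 6 knockout arrays and 9.21 to 9.62 on the 6 wildtype arrays. The 3 untreated wildtype arrays were near copies: over 6440 genes with a mean above 8, the differences between any 2 of them had an SD of 0.105 to 0.108, against 0.193 to 0.438 in the 9 pairs within the other groups. They were counted as 1 sample, their mean, so the fit had 10 samples. Xist was high and Y-linked genes were low on 9 arrays although all mice are labelled male, and 3 arrays (LPS-treated knockout replicate 2, untreated knockout replicate 2 and LPS-treated wildtype replicate 1) showed the reverse. Replicates 2 and 3 of both LPS groups had a median signal of 9.32 to 9.45 over 86 small nucleolar and Cajal body RNA genes, against 10.30 to 10.77 on the other 8 arrays. The 12 array medians of probe sets that have no gene symbol were 5.89 to 6.10. Per array, 11 dendritic cell markers averaged 11.09 to 11.46, 10 macrophage and monocyte markers 9.11 to 10.45, 11 neutrophil markers 7.38 to 8.93, 6 mast cell markers 6.57 to 6.94 and 7 lymphocyte markers 5.81 to 6.24.

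LPS raised 3 of the 9 measured genes in both genotypes, and they came from opposite sides of the family. These were Bcl2l1, a pro-survival gene, and the BH3-only genes Bcl2l11 and Pmaip1. In knockout cells 3 of 9 were called higher and 0 lower by limma at an adjusted p under 0.05, where 5.91% of all genes were called, 2.98% higher and 2.93% lower. In wildtype cells 3 of 9 were called higher and 0 lower, where 1.57% of all genes were called, 1.34% higher and 0.234% lower. The median log2 difference over the 9 genes was -0.02 in knockout cells and 0.17 in wildtype cells, against -0.0037 and -0.0053 over all genes tested.

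**Figure D1:**
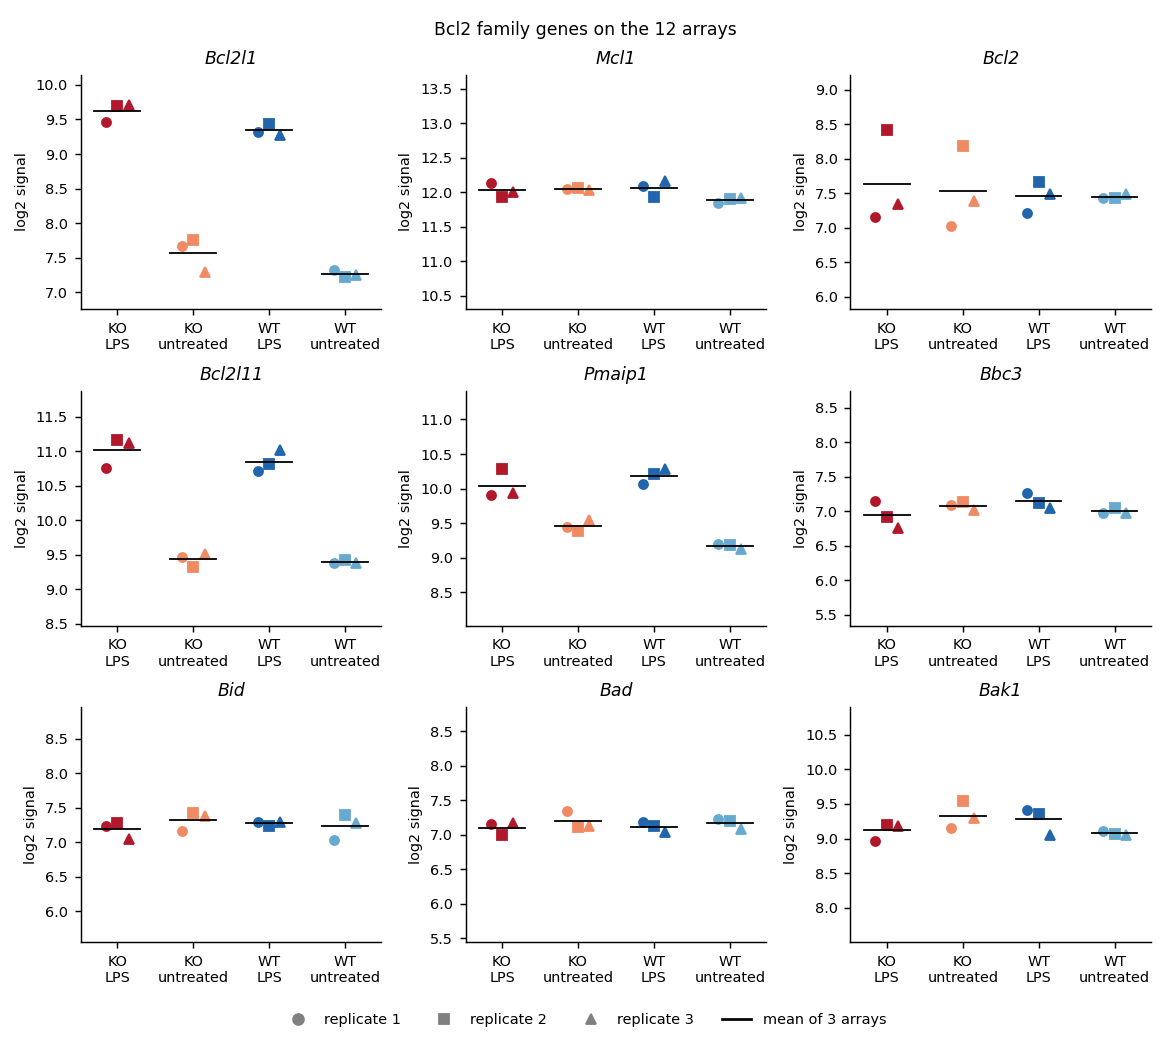
Log2 signal (vertical axis, the same span in every panel) of 9 Bcl2 family genes on the 12 arrays, by group along the horizontal axis, with marker shape for the replicate number and a line for the mean of 3 arrays. Bcl2l1, Bcl2l11 and Pmaip1 stand higher on all LPS arrays than on all untreated arrays of the same genotype, and Bcl2 stands apart on replicate 2 of both knockout groups.

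Bcl2l1 had the largest response of the set. It encodes Bcl-xL, the pro-survival protein that binds BH3-only proteins and Bak1 at mitochondria. Its log2 signals were 9.46, 9.69 and 9.71 in LPS-treated knockout cells, against 7.66, 7.75 and 7.30 in untreated knockout cells. In LPS-treated wildtype cells they were 9.32, 9.44 and 9.28, against 7.32, 7.22 and 7.24 in untreated wildtype cells. All 6 LPS arrays lay above all 6 untreated arrays, with no overlap in either genotype. The group means were 9.62 ± 0.14 and 7.57 ± 0.24 in LPS-treated and untreated knockout cells, and 9.35 ± 0.084 in LPS-treated wildtype cells (SD, n = 3 each), against 7.26 in untreated wildtype cells (1 counted sample).

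The rise of Bcl2l1 was 4.15-fold in knockout cells (log2 2.05, SE 0.13, limma adjusted p = 1.29e-05). In wildtype cells it was 4.24-fold (log2 2.08, SE 0.19, limma adjusted p = 0.000402). By p-value it ranked 24 of 22180 genes in knockout cells and 21 in wildtype cells. Between knockout arrays of the same replicate number, the LPS-treated one was higher by 1.80, 1.94 and 2.42. Over the 25 other settings tried, the log2 change stayed between 1.895 and 2.14 in knockout cells and between 1.99 and 2.12 in wildtype cells, and every setting kept both calls. Some of these settings change only the test and could not move the log2 change. The untreated signals lay below the 90th percentile of probe sets with no gene symbol (8.19 to 8.41), where a signal may understate differences in transcript, so the folds are those of the signals. Bcl2l1 makes a long and a short splice form with opposite effects on survival, and the exons this probe set reads are unknown here, so the forms could not be separated.

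Bcl2l11, which encodes Bim, the BH3-only protein that binds every pro-survival member and can activate the effectors, rose next. Its log2 signals were 10.75, 11.17 and 11.11 in LPS-treated knockout cells, against 9.47, 9.33 and 9.52 in untreated knockout cells. LPS-treated wildtype cells had 10.71, 10.81 and 11.01, against 9.39, 9.43 and 9.38 in untreated wildtype cells. Here too the LPS arrays stood clear of the untreated ones in both genotypes, by more than 1 log2 unit between the lowest LPS array and the highest untreated array. The rise was 2.97-fold in knockout cells (log2 1.57, SE 0.13, limma adjusted p = 8.87e-05) and 2.73-fold in wildtype cells (log2 1.45, SE 0.19, limma adjusted p = 0.00397). Without the 4 arrays of low small nucleolar RNA signal, which leaves 1 LPS array in each genotype, the log2 change was 1.31 in knockout cells (adjusted p = 0.0187) and 1.31 in wildtype cells (adjusted p = 0.0686), where the call did not hold. The wildtype comparison is then 1 sample against 1, with its spread taken from the other groups.

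The promoters of the 2 strongest responders are shown because LPS signals through the transcription factor NF-kB and because Bcl2l11 is a known target of FOXO factors. Windows ran from 250 bases before to 50 bases after each start in the RefSeq promoter set used, on GRCm38.p6. Both strands were searched for the NF-kB motif, the AP-1 motif TGAGTCA and the FOXO motif GTAAACA. The windows of Bcl2l1, Mcl1 and Bbc3 did not reach the 5′ end of the gene locus, so a start there was not searched. Of 3 Bcl2l1 windows and 2 Bcl2l11 windows, 1 Bcl2l1 window held an NF-kB match and 1 Bcl2l11 window a FOXO match, and neither gene had an AP-1 match. Capitals mark the match in each sequence, printed 5′ to 3′ on the strand of the gene.
Bcl2l1, chr2:152830668-152830967, minus strand: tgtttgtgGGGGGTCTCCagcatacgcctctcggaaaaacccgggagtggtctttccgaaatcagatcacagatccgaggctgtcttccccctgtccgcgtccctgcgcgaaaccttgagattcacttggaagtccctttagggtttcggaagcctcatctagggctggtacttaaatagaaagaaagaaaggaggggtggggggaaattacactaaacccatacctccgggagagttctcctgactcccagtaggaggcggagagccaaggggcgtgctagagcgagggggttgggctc
Bcl2l11, chr2:128125788-128126087, plus strand: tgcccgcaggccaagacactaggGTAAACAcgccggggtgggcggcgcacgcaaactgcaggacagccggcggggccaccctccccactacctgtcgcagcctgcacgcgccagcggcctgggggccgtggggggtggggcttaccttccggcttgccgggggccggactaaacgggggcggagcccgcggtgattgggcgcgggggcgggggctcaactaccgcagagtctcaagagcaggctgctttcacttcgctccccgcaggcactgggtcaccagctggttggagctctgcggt
The motifs occur in 8.46%, 5.2% and 3.65% of 32851 promoter windows for NF-kB, AP-1 and FOXO. Among the 10 windows of 7 other listed genes (Bax, whose signal was not analysed, and the 6 genes not called with LPS), 1 held an NF-kB match and 1 a FOXO match, both of Bbc3. A match is a run of letters and not a measured binding site. The windows of Bcl2l11 were 71.0% and 74.0% G and C, and those of Bcl2l1 49.3% to 55.7%.

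Pmaip1, which encodes Noxa, the BH3-only protein that binds Mcl1 and is best known as a target of p53 and of interferon signalling, had the smallest of the 3 responses. Its log2 signals were 9.90, 10.28 and 9.94 in LPS-treated knockout cells, against 9.45, 9.39 and 9.55 in untreated knockout cells. They were 10.06, 10.21 and 10.28 in LPS-treated wildtype cells, against 9.19, 9.19 and 9.13 in untreated wildtype cells. The groups did not overlap in either genotype, and the gap was narrower in knockout cells. The rise was 1.49-fold in knockout cells (log2 0.58, SE 0.12, limma adjusted p = 0.0224) and 2.02-fold in wildtype cells (log2 1.015, SE 0.18, limma adjusted p = 0.0179).

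Both Pmaip1 calls were lost in some of the other settings. In knockout cells the adjusted p was 0.0546 without LPS-treated replicate 3, and 0.0781, 0.0843 and 0.0555 without untreated replicates 1, 2 and 3. In wildtype cells it was 0.0507 without LPS-treated replicate 2 and 0.0614 without LPS-treated replicate 3. In knockout cells the log2 change was 0.42 without the arrays with Y-linked signal (adjusted p = 0.0899), 0.44 without the arrays of low small nucleolar RNA signal (adjusted p = 0.150) and 0.445 with a term for the low small nucleolar RNA arrays (adjusted p = 0.0926). In wildtype cells it was 0.89 without the arrays of low small nucleolar RNA signal (adjusted p = 0.138). Its direction was the same in all 25 settings in both genotypes. Some of these settings change only the test and leave the log2 change as it was, so they could not alter the direction.

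**Figure D2:**
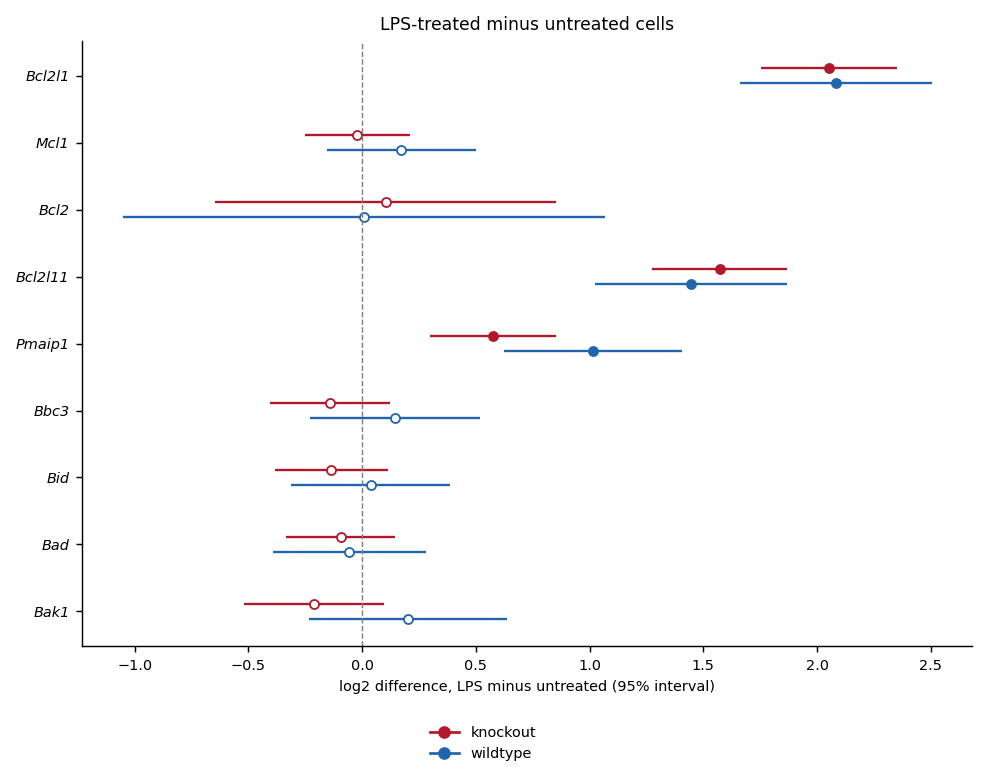
Log2 difference between LPS-treated and untreated cells (horizontal axis) for 9 Bcl2 family genes, in knockout and wildtype cells, with 95% intervals from limma; filled points have an adjusted p under 0.05. Bcl2l1, Bcl2l11 and Pmaip1 lie to the right of 0 in both genotypes, and the intervals of the other 6 genes include 0.

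The other 6 genes were not called in either genotype. Mcl1, a pro-survival gene whose protein turns over fast, lay between 11.93 and 12.14 in LPS-treated knockout cells, against 12.04 to 12.06 in untreated knockout cells. In LPS-treated wildtype cells it read 12.09, 11.93 and 12.16, against 11.84, 11.91 and 11.91 in untreated wildtype cells. The wildtype groups were apart by a small step and the knockout groups overlapped. Its log2 change was -0.02 in knockout cells (95% interval -0.25 to 0.21) and 0.17 in wildtype cells (95% interval -0.15 to 0.50). A second, dimmer Mcl1 probe set changed by -0.19 (SE 0.17) in knockout cells and -0.04 (SE 0.24) in wildtype cells.

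Bcl2, the founding pro-survival member, varied more between replicates than with LPS. Its log2 signals were 7.15, 8.41 and 7.35 in LPS-treated knockout cells, against 7.03, 8.19 and 7.39 in untreated knockout cells. In LPS-treated wildtype cells they were 7.22, 7.66 and 7.49, against 7.43, 7.43 and 7.49 in untreated wildtype cells. Replicate 2 was the highest array in both knockout groups and in the LPS-treated wildtype group. The 2 knockout arrays concerned carried Y-linked signal, while the third array with that signal, LPS-treated wildtype replicate 1, was the lowest of its group. Without the 3 arrays with Y-linked signal the LPS change was 0.04 (SE 0.16) in knockout cells and 0.13 (SE 0.19) in wildtype cells, and knockout minus wildtype after LPS was -0.32 (SE 0.16, limma adjusted p = 0.568), against 0.18 (SE 0.34) with them. Its intervals were the widest of the set, -0.65 to 0.85 in knockout cells and -1.05 to 1.07 in wildtype cells. A second Bcl2 probe set averaged 6.15 over the 12 arrays, near the median of probe sets with no gene symbol, and changed by 0.09 (SE 0.16) in knockout cells and -0.08 (SE 0.22) in wildtype cells.

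The remaining BH3-only genes and the effector gave small differences that did not pass the test. Bbc3, which encodes the p53 target Puma, averaged 6.94 ± 0.19 and 7.08 ± 0.055 in LPS-treated and untreated knockout cells, and 7.15 ± 0.11 in LPS-treated wildtype cells (SD, n = 3 each), against 6.97 to 7.05 on the untreated wildtype arrays. Bid, which links death receptors to mitochondria once caspase-8 cleaves it, ranged from 7.04 to 7.42 over the 12 arrays, and Bad, which growth factor kinases hold inactive by phosphorylation, from 6.99 to 7.35. These 3 genes lay above the median of probe sets with no gene symbol on every array, and below the 90th percentile of those probe sets (8.19 to 8.41), so a small change in transcript may not show in their signals. Bak1, the effector that forms pores in the outer membrane, read 8.97 to 9.20 in LPS-treated knockout cells, against 9.15 to 9.54 in untreated knockout cells. In LPS-treated wildtype cells it read 9.05 to 9.42, against 9.05 to 9.11 in untreated wildtype cells. The Bak1 groups overlapped in both genotypes, with log2 changes of -0.21 (95% interval -0.52 to 0.10) in knockout cells and 0.20 (95% interval -0.24 to 0.64) in wildtype cells. Over all 6 uncalled genes, adjusted p ran from 0.442 to 0.942 in knockout cells and from 0.869 to 0.998 in wildtype cells.

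Counted by array and not by test, 3 of 9 genes had every LPS-treated knockout array above every untreated one, where 10.3% of all genes did. The count was 4 of 9 in wildtype cells, with Mcl1 added, where 16.2% of all genes did. The untreated wildtype arrays are near copies, so separation from them is easier to reach than from 3 separate cultures. No member had every LPS array below every untreated array in either genotype, where 14.8% of all genes did in knockout cells and 13.9% in wildtype cells.

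No difference between Arc knockout and wildtype cells passed the test for any of the 9 genes. In untreated cells 0 of 9 were called between knockout and wildtype by limma (0 at an unadjusted p under 0.05), where 0.00451% of all genes were called, and log2 differences lay between 0.03 and 0.31. After LPS 0 of 9 were called (0 at an unadjusted p under 0.05), where 0.00902% of all genes were, with differences between -0.20 and 0.28. Over both treatments 0 of 9 were called, where 0.0135% of all genes were. An unadjusted p under 0.05 was reached there by 1 of 9, and by 732 of the 22180 genes tested. That count over all genes was 897 in untreated cells and 877 after LPS. Every other setting tried for these comparisons also called 0 of 9, counting the untreated wildtype arrays as 3 samples among them.

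The gene with the unadjusted p under 0.05 was Bcl2l1. It was higher in the knockout by 0.31 (SE 0.19) in untreated cells, by 0.28 (SE 0.13) after LPS and by 0.29 (SE 0.12) over both treatments, with limma adjusted p = 0.970, 0.999 and 0.9997 (unadjusted p = 0.0304 for the last). After LPS the lowest knockout array (9.46) lay just above the highest wildtype array (9.44), a separation upward that 2.81% of all genes showed. Of the 9 genes 0 lay apart downward after LPS, where 4.96% of all genes did. Without LPS the untreated knockout arrays spanned 7.30 to 7.75, against 7.22 to 7.32 in wildtype cells, and overlapped. Counting the untreated wildtype arrays as 3 samples, the difference over both treatments had a limma adjusted p of 0.423.

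In untreated cells, 3 of 9 genes (Mcl1, Pmaip1 and Bak1) had every knockout array above every wildtype array, where 17.7% of all genes did. Of the 9 genes 0 lay apart downward, where 11.6% did. The wildtype arrays here are the near copies counted as 1 sample in the fit. Separation from them is easier to reach than from 3 separate cultures. Pmaip1 read 9.39 to 9.55 in untreated knockout cells, against 9.13 to 9.19 in untreated wildtype cells, a difference of 0.29 (SE 0.18, limma adjusted p = 0.970). After LPS it read 9.90 to 10.28 in knockout cells, against 10.06 to 10.28 in wildtype cells, and overlapped, with a difference of -0.15 (95% interval -0.42 to 0.13).

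**Figure D3:**
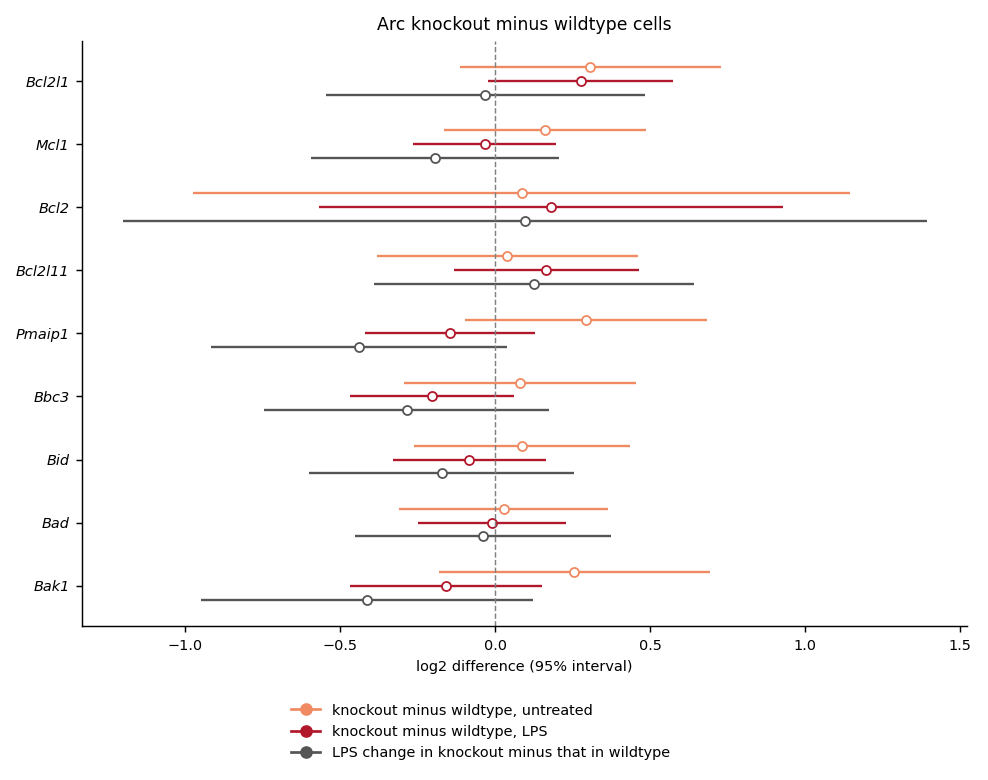
Log2 difference between Arc knockout and wildtype cells (horizontal axis) for 9 Bcl2 family genes without LPS and after LPS, and the difference between the LPS changes of both genotypes, with 95% intervals from limma. No point is filled, since no difference had an adjusted p under 0.05; the interval of Bcl2 is the widest, from -1.20 to 1.39 for the difference of LPS changes.

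The LPS changes themselves were compared between genotypes through an interaction term. None of the 9 genes passed by limma (0 at an unadjusted p under 0.05), and none of the 22180 genes tested did (0% called, 982 at an unadjusted p under 0.05). For Bcl2l1 the LPS change in knockout minus that in wildtype cells was -0.03 (95% interval -0.55 to 0.48), and for Bcl2l11 it was 0.12 (95% interval -0.39 to 0.64). For Pmaip1 it was -0.44 (95% interval -0.92 to 0.04, limma adjusted p = 0.948), the farthest from 0 of the set, ahead of Bak1 at -0.41 (95% interval -0.95 to 0.12). These intervals allow a difference of up to about 0.5 log2 units in the Bcl2l1 response in either direction, so a p above the threshold does not show that both genotypes respond alike.

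The genes whose signals followed the 3 responders most closely were found by Pearson correlation over the 10 samples, among 6141 named genes with a mean above 8. For Bcl2l1 these were Gch1 (r = 0.993), Tnf (0.991) and Rasgef1b (0.990). For Bcl2l11 they were Cpeb4 (r = 0.994), Malt1 (0.994) and Tnfaip2 (0.993), and for Pmaip1 Slc1a4 (r = 0.983), Sde2 (0.980) and Zswim6 (0.979). The 10 samples split into LPS-treated and untreated ones, so any gene with a clean LPS response correlates highly here. Gch1, which makes the cofactor of nitric oxide synthases, rose by 2.225 in knockout and 2.445 in wildtype cells on the log2 scale. Cpeb4, a regulator of poly(A) tail length, rose by 1.33 in knockout and 1.29 in wildtype cells. Among the 3 responders, r was 0.976 between Bcl2l1 and Bcl2l11, 0.904 between Bcl2l1 and Pmaip1, and 0.932 between Bcl2l11 and Pmaip1.

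Further lists of the death pathway were counted in the same fit. Of 12 other Bcl2 family genes, 0 rose and 1 fell in each genotype, where 2.93% of all genes fell in knockout cells and 0.234% in wildtype cells. The gene that fell was Bnip3, a mitochondrial family member that acts in mitophagy and is induced by low oxygen, with a log2 change of -0.93 (SE 0.11, limma adjusted p = 0.000688) in knockout cells and -1.01 (SE 0.16, limma adjusted p = 0.00946) in wildtype cells. Without the arrays of low small nucleolar RNA signal it was -0.90 (adjusted p = 0.0468) in knockout cells and -1.07 (adjusted p = 0.107) in wildtype cells, where the call was lost. The median of this list was -0.03 in knockout cells and 0.16 in wildtype cells. With the replicate number as a block, 1 rose in wildtype cells, where 483 of 22180 genes rose. With untreated wildtype arrays as 3 samples, 1 rose there too, where 1195 of 22180 genes did. Bcl2a1c, a copy of the pro-survival gene A1 named here after its values were seen, had the largest rise of the list. It changed by 0.77 (SE 0.18, limma adjusted p = 0.0740) in wildtype cells and 0.35 (SE 0.13, limma adjusted p = 0.156) in knockout cells.

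Of 18 genes of the apoptosome, caspases and their inhibitors, 1 rose and 0 fell in each genotype, beside 2.98% of all genes called higher and 2.93% lower in knockout cells, and 1.34% higher and 0.234% lower in wildtype cells. This was Cflar, which encodes c-FLIP, the inhibitor of caspase-8 at death receptors, with a log2 change of 1.075 (SE 0.12, limma adjusted p = 0.000560) in knockout cells and 1.035 (SE 0.17, limma adjusted p = 0.0145) in wildtype cells. With the replicate number as a block, 2 rose and 2 fell in knockout cells, where 952 of 22180 genes rose and 1360 fell. Without the arrays of low small nucleolar RNA signal, Cflar changed by 0.95 (adjusted p = 0.0469) in knockout cells and by 0.88 (adjusted p = 0.192) in wildtype cells, where the call was lost. The list median was -0.13 in knockout cells and 0.01 in wildtype cells.

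Of 19 regulators of Bcl2 family genes or proteins, 4 rose and 0 fell in knockout cells, and 3 rose and 0 fell in wildtype cells, where 2.98% and 1.34% of all genes rose. Pim1, a kinase that phosphorylates Bad, changed by 0.91 (SE 0.10, limma adjusted p = 0.000560) in knockout cells and 1.04 (SE 0.15, limma adjusted p = 0.00544) in wildtype cells. Mdm2, the ubiquitin ligase of p53, changed by 0.75 (SE 0.13) and 1.01 (SE 0.19), and Mapk8, which encodes the kinase JNK1, by 0.60 (SE 0.10) and 0.68 (SE 0.14), with adjusted p from 0.00663 to 0.0483. Pim3, a kinase related to Pim1, rose in knockout cells by 0.655 (SE 0.14, limma adjusted p = 0.0192), and its value in wildtype cells was 0.75 (SE 0.19, limma adjusted p = 0.108). The list median was 0.13 in knockout and 0.35 in wildtype cells. With the replicate number as a block 7 rose in knockout cells, where 952 of 22180 genes rose. With untreated wildtype arrays as 3 samples 8 rose in wildtype cells, where 1195 of 22180 genes rose. Without the arrays of low small nucleolar RNA signal, 1 LPS array was left in each genotype. Fewer genes were called there, in this list and over all genes. The log2 changes in knockout and wildtype cells were then 0.96 and 1.055 for Pim1 and 0.57 and 0.85 for Mdm2. They were 0.57 and 0.81 for Mapk8, and 0.72 and 1.05 for Pim3.

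No gene of these 3 lists was called between genotypes or by the interaction term. The genes with the smallest p in untreated cells were Bcl2a1c and Bcl2l15 (knockout minus wildtype 0.46 and -0.21), Diablo and Aifm1 (0.38 and 0.31), and Foxo3 and Mapk8 (0.32 and 0.29), list by list. After LPS they were Bcl2l15 and Bok (-0.24 and -0.13), Cflar and Endog (0.225 and -0.25), and E2f1 and Pim3 (-0.25 and -0.31). For the interaction they were Bcl2a1c and Bcl2l13 (-0.42 and -0.34), Diablo and Aifm1 (-0.43 and -0.47), and Pim2 and Foxo3 (-0.47 and -0.39). Bcl2a1c is one of several near-identical copies of the pro-survival gene A1 whose probes can share targets, so its value is uncertain. Bcl2l15 read 4.27 to 4.75 on the 12 arrays, below the medians of probe sets with no gene symbol (5.89 to 6.10), so its differences are uncertain too. Over both treatments the smallest p fell to Bcl2l15 and Bcl2a1c (-0.23 and 0.25), Cflar and Diablo (0.20 and 0.17), and Mapk8 and Pim3 (0.25 and -0.26).

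**Figure D4:**
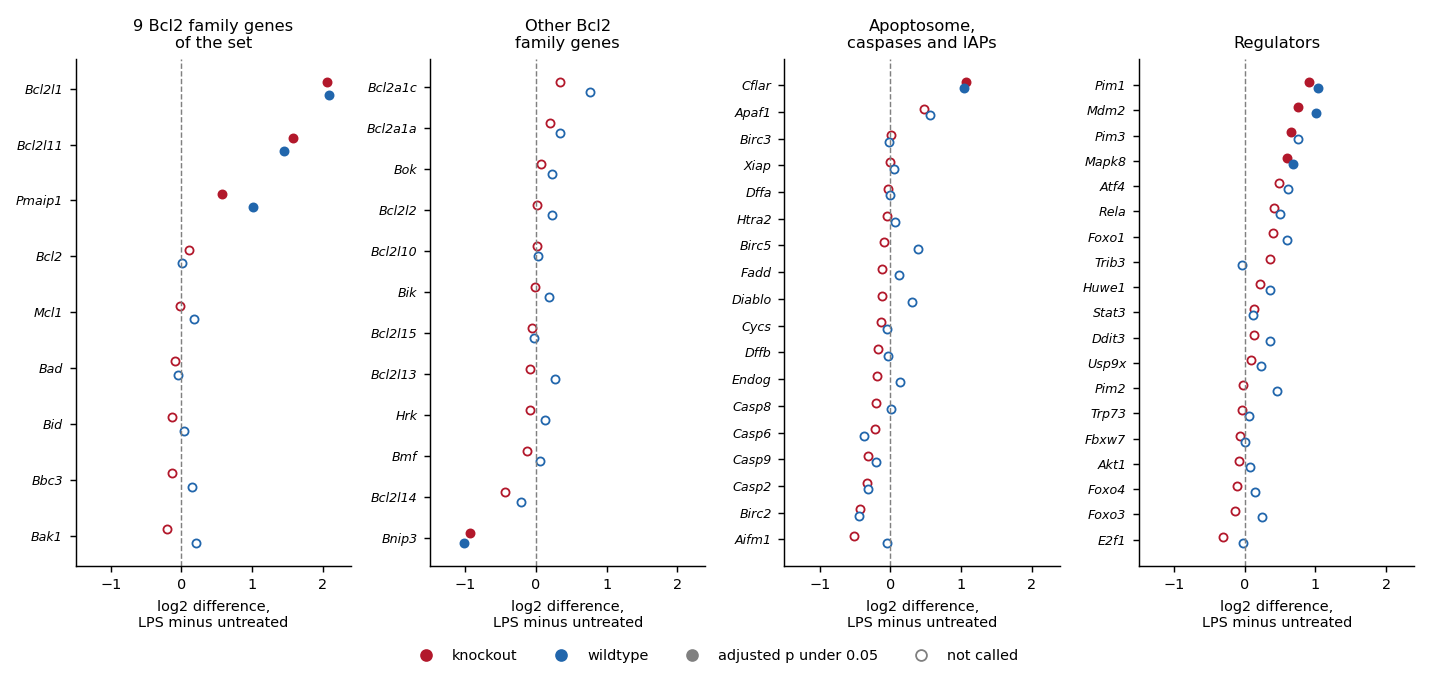
Log2 difference between LPS-treated and untreated cells (horizontal axis) for the 9 measured Bcl2 family genes of the set and for 3 further lists of the death pathway, in knockout and wildtype cells; filled points have a limma adjusted p under 0.05. The filled points in both genotypes are Bcl2l1, Bcl2l11, Pmaip1, Cflar, Pim1, Mdm2 and Mapk8 to the right of 0 and Bnip3 to the left, and Pim3 is filled in knockout cells.

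Markers of other cell types moved with LPS as well. Of 11 neutrophil markers 5 fell in knockout cells and 1 in wildtype cells, with 0 higher, where 2.93% and 0.234% of all genes fell. The list median was -0.93 in knockout cells and -0.96 in wildtype cells. With 12 arrays as 12 samples 7 fell in each genotype, where 1149 of 22180 genes fell in knockout cells and 722 in wildtype cells. Without the arrays with Y-linked signal 1 fell in each genotype, where 521 of 22180 genes fell in knockout cells and 122 in wildtype cells. Camp, an antimicrobial peptide gene of neutrophil granules, changed by -1.32 in knockout and -1.49 in wildtype cells on the log2 scale and was called in both. S100a8, Ltf and S100a9 were called in knockout cells, with -1.49, -1.53 and -1.09. Their values in wildtype cells were -1.89, -1.72 and -1.615 (limma adjusted p from 0.0694 to 0.161). Mpo, named after its values were seen, ran the other way in knockout cells at 0.24 and was -0.10 in wildtype cells. Elane, named likewise, changed by -0.13 in knockout and -0.17 in wildtype cells, and neither was called in the main fit. The list averaged 7.70 to 8.01 per array in LPS-treated knockout cells, against 8.51 to 8.88 in untreated knockout cells, and 7.38 to 8.36 in LPS-treated wildtype cells, against 8.86 to 8.93 in untreated wildtype cells.

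Of 10 macrophage and monocyte markers 3 fell in knockout cells and 1 in wildtype cells, with 0 higher, where 2.93% and 0.234% of all genes fell. The list medians were -0.74 and -0.63. With the replicate number as a block, 6 fell and 1 rose in knockout cells, where 1360 of 22180 genes fell and 952 rose. Under that setting 2 fell in wildtype cells, where 182 of 22180 genes did. Ccr2, a chemokine receptor of monocytes, changed by -1.78 in knockout and -1.54 in wildtype cells and was called in both in the main fit. Without the arrays of low small nucleolar RNA signal, which leaves 1 LPS array in each genotype, its wildtype call did not hold. Chil3 and Lyz2 were called in knockout cells, with -1.48 and -0.86, and their values in wildtype cells were -1.36 (adjusted p = 0.0519) and -0.63 (adjusted p = 0.237). C5ar1, named after its values were seen, ran the other way, at 0.67 in knockout and 0.74 in wildtype cells, without a call in the main fit. It was the only member with a positive change in knockout cells, where the replicate block called 1 member higher. The list averaged 9.11 to 10.06 in LPS-treated knockout cells, against 10.26 to 10.45 in untreated knockout cells, and 9.57 to 10.11 in LPS-treated wildtype cells, against 10.42 to 10.45 in untreated wildtype cells.

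Of 11 dendritic cell markers 3 rose in knockout cells (Zbtb46 by 0.67, Cd86 by 0.86 and Irf4 by 0.58), where 2.98% of all genes rose. In wildtype cells 2 rose (Zbtb46 by 0.88 and Cd86 by 0.87), where 1.34% of all genes rose, and Irf4 changed by 0.63 (limma adjusted p = 0.0873). In both genotypes 0 were lower. Uncalled members ranged from -0.39 for Flt3 to 0.19 for H2-Eb1 in knockout cells. Without the arrays of low small nucleolar RNA signal, which leaves 1 LPS array in each genotype, no call of this list held. Fewer of all genes were called there too. None of 7 lymphocyte or 6 mast cell markers was called with LPS in the main fit. In knockout cells the smallest p fell to Klrb1c and Cd3e and to Kit and Gata2. In wildtype cells it fell to Klrb1c and Cd3d and to Kit and Ms4a2. Kit changed by 0.64 (SE 0.22) in knockout and 0.64 (SE 0.31) in wildtype cells, where the mast cell list medians were -0.05 and -0.09. With the replicate number as a block, 1 mast cell marker rose in knockout cells, where 952 of 22180 genes did. In whole cultures, fewer cells of a type and less RNA per cell cannot be told apart, and the part of these markers in the Bcl2 family results was not tested.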

How the data were processed

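The deposited table holds the authors' log2 signal per probe set, already normalized, for 12 Affymetrix arrays of total RNA. Background correction and normalization steps are not stated here, and the submitters' processing notes list limma, version not given. The platform annotation gave 1 gene symbol to 23521 of 34390 probe sets; the brightest per gene was kept, which gave 22180 genes. Platform symbols were kept as given. Promoter sequences came from RefSeq (GRCm38.p6), for 9 of the 10 listed genes; Pmaip1 was not searched, and proteins were not analysed here.

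The fit was limma 3.58.1 in R 4.3.3, with 1 mean per group, eBayes, 6 residual degrees of freedom, two-sided tests and Benjamini-Hochberg adjustment over all 22180 genes at 0.05. It was tested on simulated data for the LPS comparison in knockout cells only. The simulated arrays were all drawn independently, unlike the near copies among the real ones. The other comparisons were not tested in that way. The 3 untreated wildtype arrays entered as their mean, and that sample is assumed to vary like the others. The 6 comparisons were LPS in each genotype, genotype without LPS, after LPS and over both, and the interaction. They share samples and are not independent of each other.

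Replicate numbers pair samples where the residuals of arrays with the same number correlate above 0.1. They did between the knockout groups (0.196 to 0.381), between the LPS groups (0.228 to 0.358) and between untreated knockout and LPS-treated wildtype cells (0.145 to 0.196), from the data and not from the labels, but not between the wildtype groups (-0.028 to 0.0087), the untreated groups (-0.053 to -0.009) or LPS-treated knockout and untreated wildtype cells (0.015 to 0.113). Other settings numbered 25, of which 24 were planned. The genes and lists were chosen with earlier results of these data known. All 10 listed genes were to be named, with up to 4 called genes of each other list by smallest p, or the 2 with the smallest p where none passed, and the 3 nearest genes of each responder; for marker lists, genotype comparisons called 0 genes and are not itemised.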

Additional observations from a re-analysis of the deposited data

How the results depend on the processing

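Of the 9 genes, 3 were called with LPS in knockout cells, and 2 to 3 were under the 25 other settings; leaving out each array in turn gave 2 to 3. In wildtype cells 3 were called, leaving out each array in turn gave 2 to 3, and the other settings gave 1 to 3. The count of 1, for Bcl2l1, came without the arrays of low small nucleolar RNA signal, where 1 LPS array per genotype is left and the wildtype comparison, 1 sample against 1, takes its spread from the other groups. In the fit of only the 2 groups compared, the adjusted p of Pmaip1 was 0.0501 in knockout and 0.0581 in wildtype cells. The genotype comparisons and the interaction called 0 of the 9 genes under all settings run. With the replicate block, 3 genes were called with LPS in each genotype and 0 in the other comparisons, so it changed no call of the 9 genes. Over all genes, 952 rose and 1360 fell with LPS in knockout cells with the replicate block, against 661 and 650 without it. In wildtype cells 1195 rose and 722 fell with 12 arrays as 12 samples, against 297 and 52 with 10 samples. A replicate block on 12 separate samples, chosen after seeing the data, also called 3 genes in each genotype. Quantile normalization and shifting arrays to a common median kept all calls of the 9 genes. A fit of only 2 groups cannot give the interaction or the comparison over both treatments. Signals of Bbc3, Bid and Bad close to those of probe sets without a gene limit what can be seen for them.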
